A study of Arabidopsis thaliana with 8 samples.

Results

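RNA-binding protein genes of Arabidopsis thaliana were examined for regions bound by an antibody against N6-methyladenosine (m6A), a methylated base of messenger RNA. The group held 258 of the 27444 nuclear protein-coding genes of the TAIR10 annotation. A gene belonged to it when its annotated product contained the words RNA-binding or RNA binding, and when that product did not contain CCCH, splicing factor or ribosomal protein. By the domain named in the product, 135 members carried an RNA recognition motif without another named class, 20 a KH domain, 10 a CRM domain, 8 a double-stranded RNA-binding domain, 8 an NTF2 domain joined to an RNA recognition motif, 8 were glycine-rich, 6 were Alba proteins and 63 fell in none of these classes. The rule itself uses no measured value, but the group was proposed with earlier results of these data known, so its excess in wild type is a description.

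The assay was miCLIP-seq, in which ultraviolet light crosslinks the antibody to poly(A)+ RNA and the RNA it holds is read by sequencing. Both genotypes were in the ecotype Col-0. They were wild type (WT) and ABI3:MTA (mta), with 2 antibody-bound libraries each, from leaves 5 to 9 of plants 4 weeks old grown in soil under 16 h of light and 8 h of dark at 22 °C. ABI3 is a gene of the developing seed whose promoter drives the MTA methyltransferase in this line, so that a rosette leaf of mta is a tissue in which that promoter is known to be little active. All samples were taken 4 h after first light. The sources used here do not give the line's other alleles or say whether plants were pooled. A leaf holds many cell types, so a change in the cells present and a change in the RNA of each cell cannot be told apart.

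RNA-binding proteins meet a transcript from its transcription to its decay. Proteins with RNA recognition motifs or KH domains act in splicing, in the choice of the polyadenylation site, in stress granules and in translation, while CRM-domain proteins serve intron splicing in organelles and double-stranded RNA-binding proteins serve small RNA production. In plants m6A is placed by a complex that contains MTA, mostly in the 3′ untranslated region (3′UTR), and is read by other RNA-binding proteins. RRACH, meaning a purine, a purine, A, C and any base but G, is its textbook sequence context.

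The RRACH nearest to the midpoint of the bound region is shown for members on which the results turn, with the RRACH in capitals and the flanking bases in lower case. The letters are DNA on the strand of the transcript, read 5′ to 3′ from the RefSeq genome of build TAIR10.1, so T stands for U. A match is a string of letters near a peak and not a mapped methylation site. The first set lies in the 3′UTR of genes that each wild-type library marked and neither mta library did.
RBP45A, chr5:22298253-22298281, plus strand: tgaatttgctatGAACAaagtgtttactg
LARP1a, chr5:7198784-7198812, minus strand: tagtatctgtagAAACAataagagatgtt
AT5G08420, chr5:2716117-2716145, plus strand: tatctatgctcaAAACTgtaaaaacaagt
AT5G65260, chr5:26080266-26080294, minus strand: cttatataattgGGACTattgggttatag
RS31, chr3:22900148-22900176, minus strand: taaaatcagtagAAACTtcataatggcgc
AT5G32450, chr5:12081545-12081573, plus strand: tgctgcatcgaaGGACActataactgcat
LIF2, chr4:355104-355132, plus strand: ggtttgatatggAGACTgctggggggata
The second set lies in the 3′UTR regions that were met by a peak of both mta libraries. In AT3G04500 the RRACH shown lies in the wild-type region but outside the mta peaks.
AT2G34160, chr2:14427349-14427377, plus strand: agaatgatagctAAACAataaaacatctc
AT3G04500, chr3:1211986-1212014, minus strand: atataaatgaacAAACAttatcattagtt
NOP10, chr2:8832795-8832823, plus strand: aaatgttgacttGAACCgtctttgtaatg
AT5G52650, chr5:21355640-21355668, minus strand: tgttgttgaatcAAACAtccgatttaaag
The last is in the coding sequence of the member that was marked by both mta libraries and by neither wild-type library.
AT5G40490, chr5:16226110-16226138, plus strand: gataggaaaactGGACAgcctcggggatt
The capitals spell AAACA in LARP1a, AT2G34160, AT3G04500 and AT5G52650, GAACA in RBP45A, AAACT in AT5G08420 and RS31, AGACT in LIF2, GAACC in NOP10, and forms beginning with GG in AT5G65260, AT5G32450 and AT5G40490. The set kept in mta and the set absent from it both contain AAACA, and no statement about sequence preference between them was tested.

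The authors called peaks in each library alone, and the lists hold 8973 and 6584 peaks for the wild-type replicates and 1934 and 2092 for the mta replicates. Absence of a peak means that no region was called, and the RNA level of a gene is not part of these lists. Sequencing depth is unknown, because the lists hold no read counts, so yield is known only from the peak numbers, which move with genotype; the part of yield in the results was not tested. Each peak carries the authors' score, whose scale no source used here gives. Scores were ranked only within a list, as a percentile among the peaks of the same strand. Raw scores are given for single genes and are not comparable between lists. A filter at a score of at least 50 was also applied to every list. None of 6 leaf genes, 3 seed genes or MTA itself was found among the peaks, so tissue and genotype could not be checked from the lists.

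Transcripts of RNA-binding protein genes were bound in many members in wild type and in few in mta. In wild-type replicate 1, 124 of 258 members had a peak (48.1%), against 27.1% of all protein-coding genes. In wild-type replicate 2, 95 members had one (36.8%), against 20.3%. Wild-type shares of the members therefore stood above those of the whole annotation in both libraries. In mta replicate 1, 16 members had a peak (6.20%), against 5.62%, and in mta replicate 2 it was 17 members (6.59%), against 6.01%. Both mta shares were near the background and are no result about these genes. The wild-type mean was 109.5 ± 20.5 members and the mta mean was 16.5 ± 0.707 (SD, n = 2 each), and the groups did not overlap (exact two-sided permutation p = 0.333, the smallest that 2 libraries against 2 allow). The ratio of the means was 6.64, and over all protein-coding genes it was 4.08. Whether the ratios differ was not tested. With every list shortened to its 1934 highest-scoring peaks, 39 and 33 members had a peak in wild type and 16 and 17 had one in mta. With scores of at least 50, 71 and 10 members remained in the wild-type replicates, against 4 and 9 in those of mta. Wild-type replicate 2 and mta replicate 2 then nearly met. This cutoff does not act alike on the lists. The highest score was 58 in wild-type replicate 2 and 203 in mta replicate 2.

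**Figure D1:**
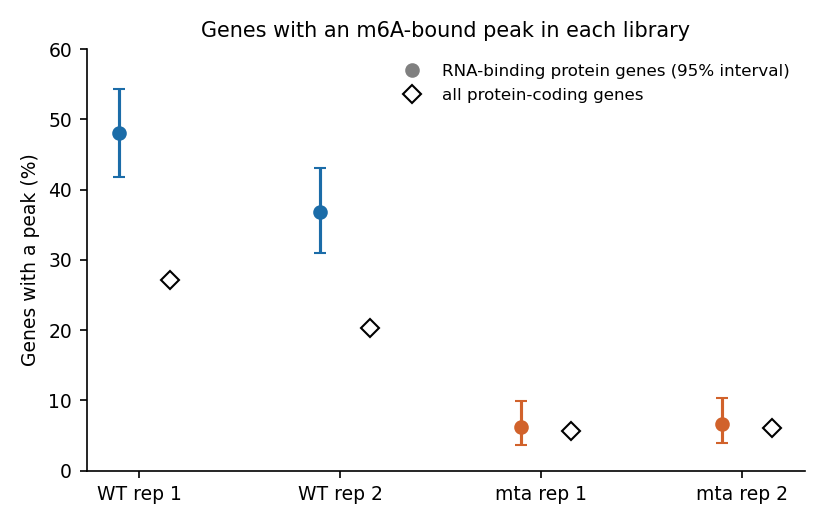
Share of genes with a peak in each of the 4 libraries, in percent on the vertical axis, for the 258 RNA-binding protein genes (with exact 95% binomial intervals, which cover counting error only) and for all 27444 protein-coding genes. The members stand at 48.1% and 36.8% in wild type and at 6.20% and 6.59% in mta, where they lie close to all genes.

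Among the members, 129 (50.0%) had a peak in at least 1 list, against 30.9% of all genes. A gene is called reproducibly bound below when each wild-type replicate gave it a peak. This held for 92 members (35.7%, exact 95% interval 29.8 to 41.8), against 18.9%. Of these 92, 72 lacked any peak in mta (78.3%, 68.4 to 86.2), against 74.1% of all reproducibly bound genes. The loss in mta among genes bound in wild type was thus near the background, and it fell below the background with scores of at least 50, with shortened lists and with peaks of at least 75 bp. Both mta lists had a peak in 5 of the 92 (5.43%, 1.79 to 12.2), against 10.2%. Over all members a peak in all 4 lists was seen in 1.94%, against 1.94%. Peaks in both mta replicates without any in wild type were seen in 1 member (0.388%), against 0.67%.

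3′UTR length was set beside these shares. The median annotated 3′UTR was 281 nt in the 92 reproducibly bound members, 276 nt in all 5194 reproducibly bound genes, and 250 nt in the 129 members without a peak. Between 200 and 299 nt of 3′UTR, 44.4% of the members were reproducibly bound, against 24.7% of all genes of that length. Between 300 and 399 nt the shares were 40.7% and 29.0%. Every length class had the higher share among the members, and the shortest classes hold few of them.

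Among members without an mta peak anywhere on the gene, those ranked highest by score in wild type belonged to several families. RBP45A, an RNA recognition motif protein of the family that binds oligo(U) and poly(A) in plant nuclei, had 1 peak in each wild-type library, with scores of 152 and 58 and midpoints 124 and 131 nt past the stop codon. Its gene lies at chr5:22295369-22298395 on the plus strand, and its mean score percentile was 99.4. LARP1a, a La-related protein whose family is known for a role in mRNA decay under heat, had scores of 144 and 50 and midpoints 21 and 19 nt past the stop codon. The LARP1a region stood nearer to the stop codon than the lower quartile of 89.5 nt over the members' regions.

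AT5G08420, annotated as a KH-domain protein, had scores of 152 and 50 and midpoints 68 and 69 nt past the stop codon. RS31, a serine/arginine-rich protein of the plant splicing machinery, had scores of 93 and 44, with midpoints 143 and 141 nt past the stop codon. In each of these genes the wild-type libraries placed the region within a few bases of each other. LIF2, known as a partner of the chromatin protein LHP1, had scores of 118 and 38, with midpoints 167 and 175 nt past the stop codon. AT1G76460 had scores of 126 and 42 at 567 and 583 nt past the stop codon, in a 3′UTR of 650 nt. Its region stood near the far end of the 3′UTR.

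AT3G21215 is a case where the libraries differed: its highest-scoring peak lay 973 nt past the stop codon in wild-type replicate 1 and 220 nt past it in replicate 2, within a 3′UTR of 1422 nt. Wild-type replicate 1 had a further peak there that overlapped the region of replicate 2, so that the gene counts as having 1 shared region. AT5G65260 and AT5G32450, both RNA recognition motif proteins without a symbol in the annotation, each had 2 shared regions in the 3′UTR, centred 114 and 214 nt past the stop codon in the first and 110 and 241 nt in the second. The other members named by the same rule, AT1G22910, AT4G10110 and AT1G06960, had 3′UTR regions whose best peaks had wild-type midpoints between 114 and 163 nt past the stop codon. All 12 members of this set lacked a peak in both mta lists by construction of the rule.

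**Figure D2:**
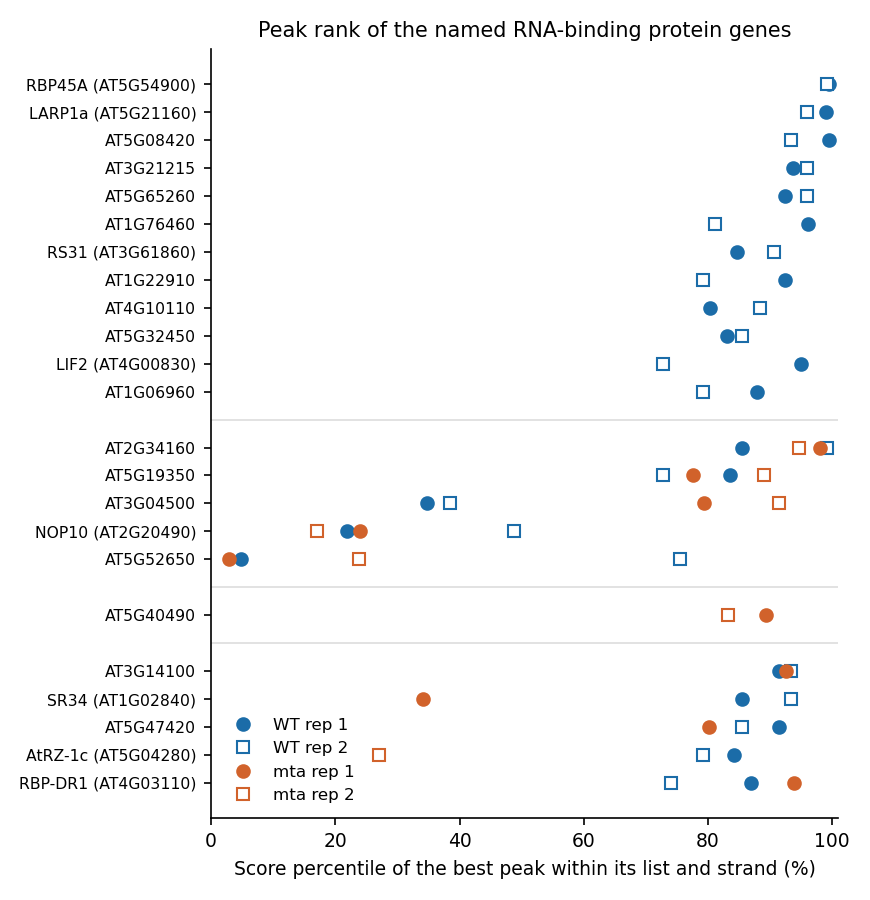
Score percentile within the list and strand (0 to 100, higher is a higher score) of the best peak of each of the 23 named members, in each library where it has a peak. The 12 members absent from mta have points in wild type alone, and NOP10 and AT5G52650 lie between 2.90 and 24.0 in mta.

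Within families the counts were uneven. The RBP45, RBP47, UBP1 and UBA list holds RNA recognition motif proteins known for binding U-rich RNA and, for RBP47 and UBP1, for entering stress granules. It was planned with 15 genes, of which 11 were matched by name in the annotation, and the rest were not counted. Of the 11, 10 were reproducibly bound, against 18.9% of all genes, and 8 of those lacked a peak in mta. Of all reproducibly bound genes, 74.1% lacked a peak in mta. The list was written with earlier results of these data known and the count is a description. RBP45B had scores of 36 and 18, ATRBP45C 80 and 29, RBP47A 61 and 15, and RBP47C 90 and 42 in the wild-type replicates, with no mta peak in these genes. RBP47B (133 and 29) and RBP47C' (112 and 33) were also bound in wild type, and in mta replicate 2 each had peaks in the coding sequence instead, 2 in RBP47B and 1 in RBP47C'. RBP47C and RBP47C' are neighbouring close copies, and reads could have been split between them. The wild-type region of RBP47A stood 606 nt past the stop codon in a 3′UTR of 841 nt, whereas those of RBP45B and RBP47B stood between 121 and 135 nt past it.

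La-related proteins of the LARP1 class were reproducibly bound in 3 of 3 genes, against 18.9% of all genes. None of the 3 had an mta peak, as for 74.1% of all reproducibly bound genes. LARP1b and LARP1c, whose product text falls outside the member rule, are the genes beside LARP1a. LARP6a, a member, had 2 shared regions, centred 63 and 180 nt past its stop codon, and none in mta. Of 20 KH-domain members, 6 were reproducibly bound (30.0%, against 18.9% of all genes) and none of the 6 had an mta peak, as for 74.1% of all reproducibly bound genes. AT5G46190 and AT5G56140, KH-domain members with a peak in 1 wild-type replicate, had one in mta replicate 2. FLK, a KH-domain protein that promotes flowering, had scores of 77 and 35 and midpoints 93 and 109 nt past the stop codon. FPA, PEP and HEN4, other regulators of flowering and flower form, had no peak in any list.

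Among the 8 glycine-rich members, 3 were reproducibly bound (37.5%, against 18.9% of all genes). GRP4 had scores of 63 and 28, and GR-RBP5 had 37 and 20, with no mta peak in either. GR-RBP6 had scores of 67 and 49 in wild type and a peak of score 20 in mta replicate 1, in the coding sequence 31 nt before the stop codon, which overlapped a wild-type peak. GRP7 and its close relative CCR1, clock-regulated glycine-rich proteins that bind each other's transcripts, had no peak in any list. The same held for 50.0% of the members and 69.1% of all genes, and leaves were sampled at a single time of day. AtRZ-1b and AtRZ-1c, zinc-finger glycine-rich proteins that act in splicing, were reproducibly bound, and ATRZ-1A was not bound in any library.

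Alba proteins, small proteins that bind DNA and RNA, had 3 of 6 members reproducibly bound, where 18.9% of all genes were, and AT2G34160 kept its region in both mta lists. Of the 8 NTF2-domain members, related to the animal stress-granule protein G3BP, 3 were reproducibly bound (37.5%, against 18.9% of all genes). None of the 8 had an mta peak. Over all genes 5.62 and 6.01% had one in mta replicates 1 and 2, so in 8 genes this is no result. In 1 of the 3, AT1G69250, the wild-type peaks did not overlap, with that of replicate 1 in the 3′UTR and that of replicate 2 in the coding sequence. Among double-stranded RNA-binding members 1 of 8 was reproducibly bound (12.5%, against 18.9% of all genes). That was DRB2, which acts in small RNA pathways. Its region was met by a peak of mta replicate 2, and the class held no other reproducibly bound member. HYL1, the partner of DICER-LIKE1 in microRNA processing, and DRB3, DRB4 and DRB5 had no peak. CRM-domain members were reproducibly bound in 2 of 10 (20.0%), which is near the 18.9% of all genes. These family counts are small, and no family was tested against the rest. The chloroplast ribonucleoproteins CP31B and CP33 had a peak in wild-type replicate 1 alone, and CP29 and RBP31, their relatives, had none.

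The bound regions of wild type lay almost entirely in 3′UTRs. Of the placed member peaks, 137 of 148 in wild-type replicate 1 (92.6%) and 104 of 111 in replicate 2 (93.7%) had their midpoint there, against 8 of 18 (44.4%) and 6 of 20 (30.0%) in mta replicates 1 and 2. Means were 93.1 ± 0.796% and 37.2 ± 10.2% (SD, n = 2 each), with no overlap (exact two-sided permutation p = 0.333). Wild-type replicates had 11 and 6 coding-sequence peaks, and the mta replicates had 9 and 14. The members' coding-sequence counts overlapped between the genotypes (exact two-sided permutation p = 0.667), and their 3′UTR counts did not. For the whole protein-coding set, coding-sequence peaks numbered 755 and 935 for the mta replicates, each above the wild-type values of 696 and 548. Its 3′UTR counts were 7743 and 5633 for the wild-type replicates, against 917 and 801 for those of mta. The lower 3′UTR counts of mta are thus not particular to the members. Over all protein-coding genes the mean 3′UTR shares were 91.1% and 49.1%. In the last exon lay 94.7 and 93.0% of the member peaks of wild type and 55.6 and 35.0% of those of mta. Over all protein-coding genes the last-exon shares were 94.0, 93.2, 70.1 and 61.3%, so the wild-type values of the members were at the background.

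**Figure D3:**
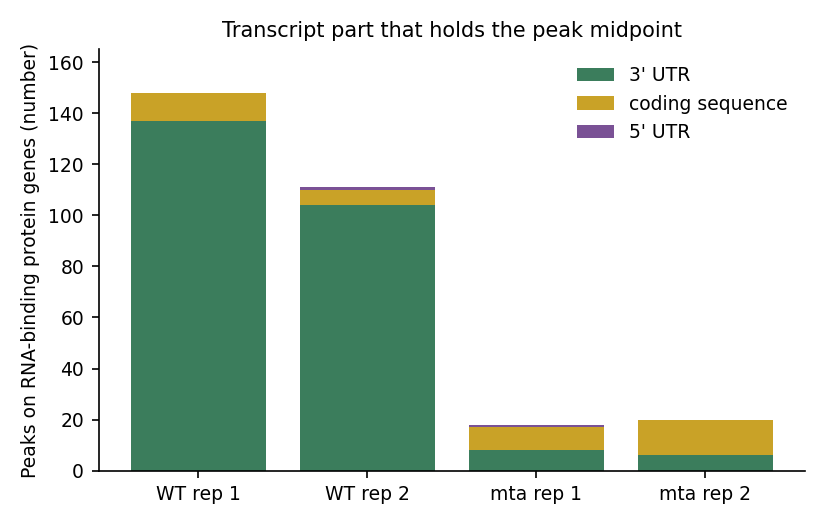
Number of member peaks in each library (vertical axis, peaks) by the transcript part that holds the midpoint. Wild type has 137 and 104 peaks in 3′UTRs and mta has 8 and 6, while coding-sequence peaks number 11, 6, 9 and 14 in the order of the libraries.

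Peaks of both wild-type lists that overlapped by at least 1 bp were merged into 99 regions in 90 members. Of the 96 regions placed on the representative transcript, 95 lay in the 3′UTR and 1 in the coding sequence, in AT3G13224. The centres of the 95 had a median of 135 nt past the stop codon, with quartiles of 89.5 and 190 nt, against a median of 117 nt in 4934 regions of other genes. Centres no more than 100 nt from the stop codon numbered 26 (27.4%, exact 95% interval 18.7 to 37.5), against 38.6% of the regions of other genes. More than 400 nt past it lay 6 (6.32%), against 1.34%. Those were AT1G20880 (498 nt), AT1G33470 (1035 nt), RBP47A (606 nt), AT1G76460 (567 nt), AT3G15010 (878 nt) and AT4G14300 (601 nt), all in 3′UTRs of over 600 nt. No test was made of these shares, since regions of 1 list are not replicates.

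**Figure D4:**
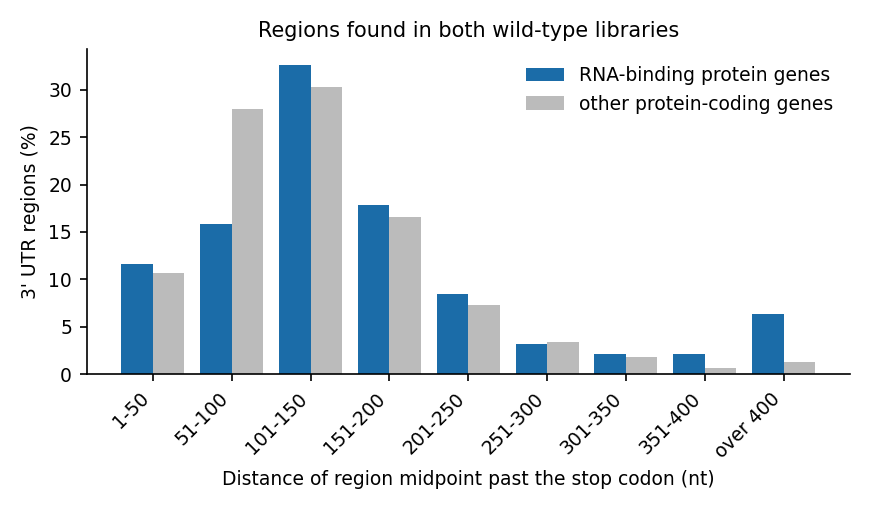
Distance of the region centre from the stop codon in nt (horizontal axis, bins of 50 nt) and share of regions in percent (vertical axis) for the 95 regions of the members and for 4934 regions of other protein-coding genes. Members have 15.8% of regions between 51 and 100 nt, where other genes have 28.0%, and 6.32% beyond 400 nt, where other genes have 1.34%.

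Most of these members had 1 shared region. Of the 92 reproducibly bound members, 81 had 1, 9 had 2 (9.78%, against 5.16% of all reproducibly bound genes) and 2 had none in common. The 9 were AT1G20880, AT1G66260, emb2444, AT3G13224, AT4G14300, AT5G06210, AT5G32450, LARP6a and AT5G65260. In none of them did an mta peak meet a region. An mta peak met 8.08% of the shared regions of all members and 14.9% of those of all genes, so in 9 genes this is no result.

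Peaks of mta were few and often elsewhere on the transcript. The mta libraries had 38 peaks in 27 members. Of these, 13 overlapped a wild-type peak (12 in the 3′UTR, 1 in the coding sequence), and 25 did not, of which 22 lay in the coding sequence, 2 in a 3′UTR and 1 in a 5′UTR. In 22 of the 25 the gene had a wild-type peak elsewhere, at a median genomic distance of 1447.5 nt between midpoints (89 to 2522 nt). The overlap of mta peaks with wild-type peaks is not given here for the peaks of all genes. Coding sequence held 50.0 and 70.0% of the members' placed peaks in mta replicates 1 and 2. Over all protein-coding genes it held 44.1 and 52.0%, and the difference was not tested. Overlapping peaks were close: the median distance was 9 nt (1 to 40, n = 13) for mta peaks and 10 nt (0 to 69, n = 99) between the wild-type replicates. An mta peak met 8 of the 99 shared wild-type regions (8.08%, 3.55 to 15.3), against 14.9% of all 5394 regions. The order turned with scores of at least 50, where 2 of 9 regions were met (22.2%, against 12.6%), and with peaks of at least 75 bp, where 3 of 60 were (5.00%, against 4.22%). Of the 20 reproducibly bound members that also had an mta peak, 8 (40.0%, 19.1 to 63.9) had a shared region met by it, against 59.2% of 1345 such genes.

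**Figure D5:**
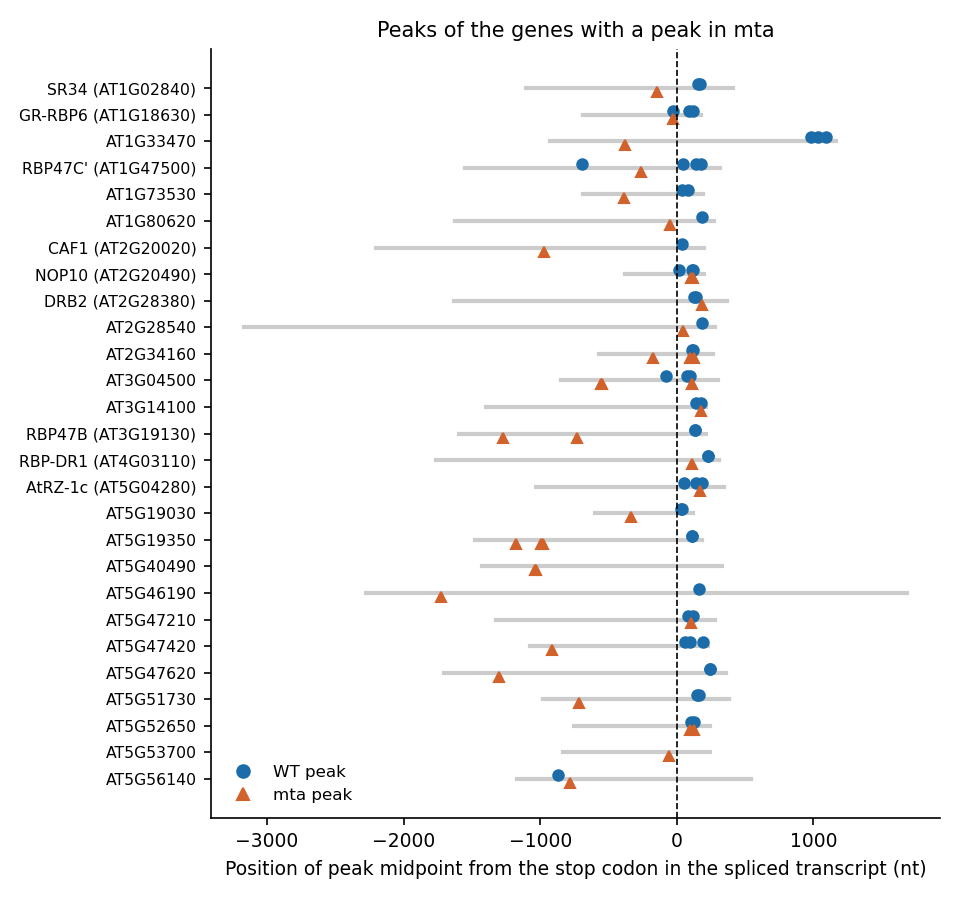
Position of each peak relative to the stop codon (horizontal axis, nt, negative before the stop codon) for the 27 members with an mta peak, in wild type and mta. Most wild-type peaks lie past the stop codon, and 22 mta peaks lie in the coding sequence away from any wild-type peak.

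AT2G34160, the Alba protein, had scores of 95 and 58 in wild type. In mta the scores were 76 and 91, and the peaks of score 35 and 91 in mta replicates 1 and 2 stood 100 and 129 nt past the stop codon, on the wild-type region. The best peak of mta replicate 1, score 76, lay 174 nt before the stop codon, in the coding sequence. AT3G04500 had a 3′UTR region shared by all 4 lists and a further coding-sequence peak at 552 and 548 nt before the stop codon in mta replicates 1 and 2, with scores of 48 and 86. That second peak had no wild-type counterpart.

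NOP10, a core protein of the complexes that turn uridine into pseudouridine, had scores of 31 and 29 in the wild-type replicates and then 24 and 37 in those of mta, at 117, 112, 116 and 102 nt past the stop codon. AT5G52650, whose product text names a plectin/S10 domain, had wild-type scores of 18 and 41 and mta scores of 15 and 43. In both of these genes all peaks lay in the 3′UTR. AT5G19350 also counted in all 4 lists, yet its wild-type peaks were 112 and 114 nt past the stop codon and its mta peaks were in the coding sequence, 991 nt before it in replicate 1 and 1180 and 976 nt before it in replicate 2. AT5G40490, the member marked by both mta libraries and by neither of wild type, had peaks of score 54 and 69 that lay 1034 and 1041 nt before the stop codon, so both mta libraries marked 1 place. AT5G53700 also had no wild-type peak and was marked in mta replicate 2 alone, in the coding sequence with a score of 55.

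Reproducibly bound members with a peak in 1 mta replicate numbered 15 (16.3% of the 92), against 15.7% of all reproducibly bound genes, so the count is at the background. In AT3G14100, with wild-type scores of 108 and 50, the mta replicate 1 peak of score 61 fell on the wild-type region. AtRZ-1c had scores of 92 and 42 and a peak of score 42 on its region in mta replicate 2. By contrast, in SR34, a serine/arginine-rich splicing protein with scores of 95 and 50, the mta replicate 1 peak of score 28 lay in the coding sequence 147 nt before the stop codon. In AT5G47420 (108 and 43) it lay in the 5′UTR with a score of 47, and in RBP-DR1, a defence-related protein (97 and 39), it lay in the 3′UTR, 118 nt from the nearest wild-type midpoint, with a score of 65. Each of these rests on a single mta library.

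RRACH was searched as its 12 strings on the strand of the gene. Within 50 nt of the midpoint it was found in 81.1 and 82.0% of member peaks of wild-type replicates 1 and 2 and in 88.9 and 85.0% of those of mta. The mta libraries were higher by 5.41 percentage points on average (exact two-sided permutation p = 0.333), and the order turned with a window of 25 nt, with a window of 100 nt and on the plus strand alone. Over all protein-coding genes the shares were 78.2, 78.3, 73.0 and 74.7%. Of the wild-type peaks in 3′UTRs, 83.2% (75.9 to 89.0) and 80.8% (71.9 to 87.8) had a match within 50 nt. The same held for 71.5% of the 83195 positions in the 3′UTRs of all 258 members and for 71.4% of the 32720 positions in those of the 92 reproducibly bound members. Within 25 nt the peak shares were 62.8 and 67.3%, against 47.5 and 47.6% of these positions, and within 100 nt they were 94.9 and 93.3%, against 91.9 and 92.3%. No test was made of these differences.

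Among the members' regions with an RRACH within 50 nt of the centre, the nearest match was AAACA in 21 (26.6%), against 20.0% of such regions in all genes. Other forms stood the other way, among them AAACT with 16.5% against 18.9% and AGACT with 5.06% against 9.18%. The member counts are small, and no form was tested. AAACA made up 19.6% of all RRACH matches in the 3′UTRs of the 92 reproducibly bound members. GGACT, the form most often named as the m6A site of animals, was nearest in 4 of the members' regions (5.06%) and in 3.43% of those of all genes. URUAY, meaning U, a purine, U, A and a pyrimidine, was found within 50 nt of 52.0 and 46.8% of member peaks in wild type and of 27.8 and 30.0% in mta. Over all protein-coding genes the shares were 58.2, 58.0, 45.4 and 41.8%, with wild type also above mta. Of the members' wild-type peaks in 3′UTRs, 51.1 and 48.1% had a match within 50 nt. In mta replicates 1 and 2 it was 4 of 8 and 4 of 6 such peaks (50.0 and 66.7%). The lower mta shares were thus not seen among 3′UTR peaks, which are few in mta. Of 3′UTR positions, 44.3% had a match in all members and 46.4% in the reproducibly bound ones. Within 25 nt the wild-type shares were 34.3 and 35.6%, against 26.3 and 28.0% of these positions. Within 100 nt they were 69.3 and 69.2%, against 66.5 and 67.7%. No test was made of these differences.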

How the data were processed

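Peak lists of the 4 antibody-bound libraries were used; the supernatant libraries were not analysed here. Reads were handled with STAR 2.4.0 and MACS2 on TAIR10, per the submitters' processing notes, and the MACS2 version, its control and its threshold were not given in the sources used here. The authors' deposited score of each peak comes with its position and strand; peaks were called library by library, per the peak names in the files. The lowest score was 13 in 3 lists and 20 in mta replicate 2. Depth is unknown.

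Peaks were assigned by midpoint to same-strand exons of RefSeq TAIR10.1, which held 97.8% of the 19528 nuclear peaks; no peak ended outside its chromosome. Midpoints shared by exons of several genes were dropped. Features refer to the isoform whose coding sequence is longest. Peaks overlapping by at least 1 bp on a strand were shared. Genotypes were compared by exact two-sided permutation of library values; the exact 95% intervals are Clopper-Pearson and describe counting error alone. Nothing in the labels says that replicates came from separate plants, so p-values measure a spread that may be technical. The code was tested on simulated data. Python 3.11.15, numpy 2.4.6, scipy 1.17.1 and matplotlib 3.10.9 were used.

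The members and the lists of related genes were chosen with earlier results of these data known. Of 90 listed genes in 13 lists, 79 in 12 lists were kept by a match of name or product text in the annotation. The list of 4 mRNA export adaptors (ALY) was left out whole, without a search by name. The named genes were the 12 members ranked highest by mean score percentile over the wild-type lists among those with wild-type peaks in each replicate and no mta peak, up to 10 in all 4 lists, up to 5 in both mta lists alone and up to 5 in both wild-type lists and 1 mta list, with up to 4 reproducibly bound genes per gene list. Further genes in the text were picked with their values in view. Alternatives changed the score cutoff, list length, exon rule, peak width, strand, overlap, motif window, product text, ranking and the libraries used.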

Additional observations from a re-analysis of the deposited data

How the results depend on the processing

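Of 81 alternatives over 7 results, 69 were counted as the same, 9 as moved and 3 as reversed. For differences between genotypes, the same means the same sign and not a near value. The difference of 93 members with a peak fell to 34 with scores of at least 50 and to 19.5 with shortened lists. The RRACH difference was -21.2 points on the minus strand and -17.4 points with peaks of at least 75 bp. The members bound in both wild-type lists numbered 92, and 9 with scores of at least 50, 25 with lists shortened to the 1934 peaks of the shortest, 58 with peaks of at least 75 bp, and 49 and 43 on the plus and minus strands alone; fewer peaks or genes enter each. The ratio of the members' share to that of all genes ranged from 1.63 to 2.23 over these settings. Of the members bound in both wild-type lists, the share without an mta peak was 68.0% with shortened lists (70.4% over all genes), 91.4% with peaks of at least 75 bp (94.6%) and 77.8% with scores of at least 50 (80.1%), each below the background, where the value given was 78.3% (74.1%). Regions met by an mta peak were 22.2% (2 of 9) with scores of at least 50 (12.6% over all genes) and 5.00% with peaks of at least 75 bp (4.22%), each above the background, where the value given was 8.08% (14.9%). The RRACH difference of wild type minus mta was -5.41 points and turned to 5.60 on the plus strand, 7.54 within 25 nt and 1.25 within 100 nt; the cause was not tested.

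Leaving out 1 library in turn gave a difference in members with a peak of 78.5 to 107.5 genes, 92 to 124 members bound in wild type, 77.9 to 87.0% of them without an mta peak, a 3′UTR difference of 48.7 to 63.1 points, an RRACH difference of -7.36 to -3.47 points and 5.26 to 7.89% of regions met. Ranking scores over both strands together kept 22 of the 23 named genes. The correlation of same-numbered deviations was -0.00233 across 8468 genes. This gave no sign that the replicate numbers pair the libraries, but with 2 libraries per genotype it cannot exclude such pairing. With the replicate block, the differences of 93 genes, 55.9 points and -5.41 points had a sign-flip p of 0.5, the smallest that 2 pairs allow.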

Other observations

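Related genes whose product text falls outside the member rule were bound as well. Of 31 such genes on the lists, 13 were reproducibly bound in wild type and 10 of the 13 lacked an mta peak, where 18.9% of all genes were reproducibly bound and 74.1% of those lacked one, as a description of lists chosen with earlier results known. PAB4 and PAB8, poly(A)-binding proteins, were among the 2 of 8 genes of that family that were reproducibly bound. PTB1, PTB2 and PTB3, polypyrimidine tract-binding proteins that act in splicing, were reproducibly bound, as were the Pumilio genes PUM3 and PUM5, whose family represses mRNAs through their 3′UTRs. PTB2 also had a coding-sequence peak in mta replicate 1, and PTB3 had one in both mta lists. The Mei2-like genes ML1 and ML5 were reproducibly bound, and ML2 and ML4 had no wild-type peak. ML1 also had a coding-sequence peak in both mta lists.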
